A study of Mus musculus with 40 samples.

Results

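The genes that encode 9 sensory neuropeptides of the spinal cord were followed through the midbrain and the spinal cord of MPTP-treated mice. The genes were chosen by name: Calca, Calcb, Tac1, Adcyap1, Penk, Pdyn, Sst, Npy and Grp, which are 9 of the 40213 gene symbols counted. All 9 passed the filter on low counts in both tissues. Messenger RNA was sequenced in 40 libraries, with 4 replicates in each of 5 groups per tissue. All mice were C57BL/6N males, 8 weeks of age per the labels. Con mice received saline in place of the toxin, and the other groups received MPTP, a toxin of dopaminergic neurons, as 4 injections of 20 mg/kg given 2 h apart. Con and MPTP-Veh mice then received saline at the acupoint GB34. MPTP-SU mice received 4 injections of SU-Eohyeol pharmacopuncture (SUEHP), a herbal extract, at that point. MPTP-SU+S mice were also given 3 mg/kg of a CB1 antagonist, named SR141714A in the labels and SR141716A in the methods, and MPTP-SU+T mice 5 mg/kg of the PPARγ inhibitor T0070907. No group analysed here received an antagonist without SUEHP.

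Neuropeptides are cut from larger precursors, stored in dense-core vesicles and released to act on G protein-coupled receptors. Peptidergic sensory neurons of the dorsal root ganglia make CGRP, substance P and PACAP and release them in the superficial dorsal horn, where pain signals enter the cord. Interneurons of the dorsal horn make enkephalin, dynorphin, somatostatin, neuropeptide Y and gastrin-releasing peptide, of which the opioid peptides and neuropeptide Y dampen nociceptive transmission and gastrin-releasing peptide carries itch. The cell bodies of the sensory neurons lie outside the cord, so that afferent peptide transcripts in cord tissue come mainly from neurons of the cord itself, such as motor neurons for Calca, unless ganglion tissue is included.

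Calca encodes calcitonin and αCGRP and Calcb encodes βCGRP, and their coding parts hold a near-identical stretch. How reads over it were assigned was not tested. The stretch is shown because the 2 genes are described separately here. Windows of 90 bases, from GENCODE vM21, were compared only where their opening bases matched exactly. The most alike of these windows had 87 identical bases (96.7%). It begins at base 226 of the Calca coding part and at base 307 of the Calcb coding part. Capitals mark the 3 bases that differ.
Calca: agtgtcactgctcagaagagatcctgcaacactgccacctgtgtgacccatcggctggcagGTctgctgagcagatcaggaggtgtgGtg
Calcb: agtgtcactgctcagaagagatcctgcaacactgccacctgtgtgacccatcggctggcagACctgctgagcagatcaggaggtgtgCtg
Of all 31-base words in the transcripts, 33 were shared, which was 1.97% of the 1678 words of Calca and 2.62% of the 1260 words of Calcb. The larger part of each transcript was not shared.

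Several neuropeptide genes are known to be driven by cyclic AMP through the CRE motif. The 250 bases before the start of transcription were read from RefSeq (GRCm38.p6), in which 6 of the 8 members looked up had an entry, with 8 entries in all; Penk and Calcb had none. The motifs TGACGTCA (the full CRE), TGACG (its first 5 letters, which the full motif contains on both strands) and the PPAR response element were searched on both strands. The promoters of Sst, Calca and Tac1 are shown as examples of members that had groups without overlap and held a match. Capitals mark the matches, and each sequence is written 5′ to 3′ on the strand of its gene. The Sst promoter lies at chr16:23890845-23891094 on the minus strand, the Calca promoter at chr7:114636358-114636607 on the minus strand and the Tac1 promoter at chr6:7554811-7555060 on the plus strand.
Sst: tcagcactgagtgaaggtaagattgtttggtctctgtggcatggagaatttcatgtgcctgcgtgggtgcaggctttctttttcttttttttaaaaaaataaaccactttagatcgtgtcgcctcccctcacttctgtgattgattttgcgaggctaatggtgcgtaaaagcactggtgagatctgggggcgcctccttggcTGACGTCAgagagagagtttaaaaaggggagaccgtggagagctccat
Calca: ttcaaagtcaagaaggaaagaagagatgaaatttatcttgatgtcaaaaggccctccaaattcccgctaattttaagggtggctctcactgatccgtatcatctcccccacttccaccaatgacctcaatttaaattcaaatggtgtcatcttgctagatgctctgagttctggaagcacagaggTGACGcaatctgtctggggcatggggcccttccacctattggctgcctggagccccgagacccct
Tac1: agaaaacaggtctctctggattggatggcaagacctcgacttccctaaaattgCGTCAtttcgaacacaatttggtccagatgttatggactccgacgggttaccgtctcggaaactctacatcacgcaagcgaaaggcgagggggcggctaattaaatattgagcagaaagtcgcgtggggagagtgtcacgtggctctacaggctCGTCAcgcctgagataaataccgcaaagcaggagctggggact
Sst held the full motif, which 1.55% of 32851 promoters of the same length hold, 48 bases before its start. Calca held the 5-letter form 65 bases before its start, and Tac1 held it on the other strand at 197 and 43 bases. The 5-letter form occurs in 17.8% of all promoters. It was also found in the Adcyap1 promoter, and none of the entries of Pdyn or Npy held it. The PPAR element is in 0.0335% of all promoters and was not found in these windows.

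The tissue labels were checked first. Hoxc8, a gene of trunk segments, had a CPM, a count scaled to a common library size, between 54.6 and 78.8 in cord libraries and between 0 and 0.156 in those of the midbrain. Slc6a3, the dopamine transporter, lay between 17.7 and 128 CPM in the midbrain and at most at 0.302 in the cord. Library totals ranged from 11958200 to 16639820 counts. Several libraries stood apart. In the midbrain, MPTP-Veh replicate 4 had 1.35% of its counts in mitochondrial genes against 9.92% to 17.5% in the other 19, and the summed level of 14 hypothalamic markers reached 673 CPM in MPTP-Veh replicate 1 and 482 CPM in Con replicate 3, against at most 118 CPM in the others.

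One spinal cord library held transcripts of sensory ganglia. In MPTP-SU replicate 2, Scn10a, a sodium channel of nociceptors, had 83 counts, and MPTP-SU+T replicate 1 had 23, whereas the other 18 cord libraries had 0 to 2. Avil, a marker of sensory neurons, had 93 and 20 counts in these 2 libraries and 0 to 9 elsewhere, and Scn11a had 45 and 17 counts and 0 to 3 elsewhere. Of 24 listed genes of dorsal root ganglia and spinal roots, 13 were higher in MPTP-SU replicate 2 than in all 18 other libraries, and 5 were higher in MPTP-SU+T replicate 1. The values of members against MPTP-SU in the cord are therefore also given without MPTP-SU replicate 2.

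Per kilobase of the longest transcript, Penk and Sst were the most abundant members in the spinal cord. Over 20 cord libraries Penk, the enkephalin precursor, averaged 118 ± 9.0 CPM per kb (SD) and Sst, the somatostatin precursor, 109 ± 8.21. Their ranges, 107 to 147 and 96.8 to 136, overlapped, and both stood apart from Npy at 30.7 ± 3.52 CPM per kb. Calca followed at 13.7 ± 3.05, Tac1, the substance P precursor, at 9.57 ± 0.938, Calcb at 7.58 ± 1.43 and Adcyap1, the PACAP precursor, at 7.46 ± 0.570. Calcb and Adcyap1 were less than 1 SD apart. Pdyn, the dynorphin precursor, and Grp were the lowest, at 4.18 ± 0.396 and 3.69 ± 0.528 CPM per kb, with overlapping ranges. In the midbrain, Sst led with 79.4 ± 23.3 CPM per kb, followed by Penk at 36.9 ± 13.1, and Npy, Tac1 and Adcyap1 at 14.7 ± 6.55, 12.8 ± 3.91 and 11.5 ± 3.58 overlapped over all groups. The order of these 3 differed by group. In Con, Npy lay at 20.1 to 35.7 CPM per kb, above Tac1 at 6.70 to 17.2 and Adcyap1 at 7.81 to 12.1, whereas in MPTP-SU+S the mean of Npy was 9.76 and that of Adcyap1 13.3. Grp, Calca and Pdyn lay at 3.05 ± 0.844, 2.57 ± 0.748 and 2.31 ± 1.19 CPM per kb, and Calcb was lowest at 0.760 ± 0.357.

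**Figure D1:**
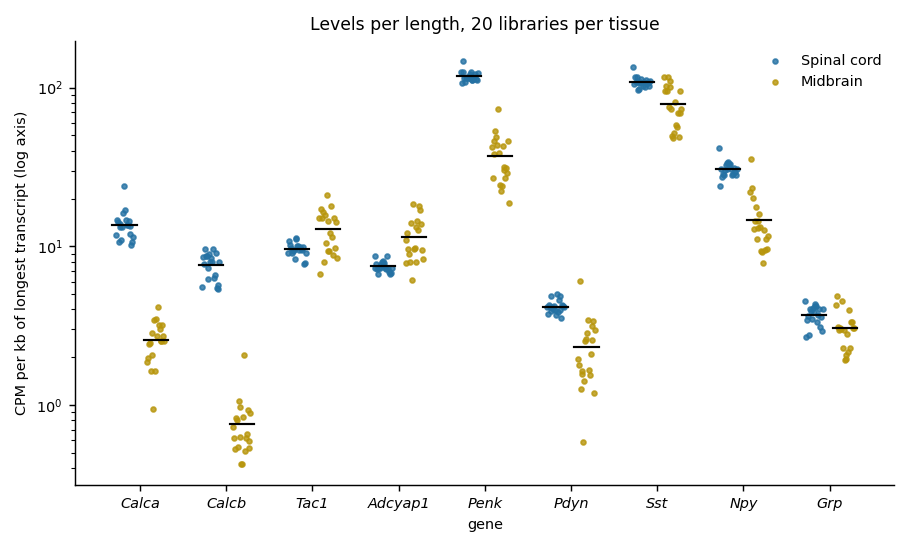
Levels of the 9 neuropeptide genes in CPM per kb of the longest transcript, on a log axis, in 20 spinal cord and 20 midbrain libraries. Points are libraries and black lines are means. Calca, Calcb and Penk stand apart between the tissues, and Tac1 and Adcyap1 are the members whose midbrain mean is the higher one.

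The CGRP genes differed most between the tissues. Calcb was higher in the spinal cord by 3.32 on the log2 scale (7.28 ± 1.38 against 0.733 ± 0.344 CPM, SD over 20 libraries per tissue), and Calca was 5.28-fold higher (13.6 ± 3.04 against 2.56 ± 0.748). Penk was 3.27-fold higher (170.5 ± 12.7 against 53.6 ± 18.8 CPM). For these 3 genes the 20 cord values lay entirely above the 20 midbrain values, which held for 9.08% of the 17426 genes tested in either direction. Npy was 2.19-fold and Pdyn 1.87-fold higher in the cord, and Adcyap1 was lower there, at 25.2 ± 1.97 against 39.1 ± 12.2 CPM. With edgeR, 6 of the 9 genes were called, which needed a 1.5-fold change as well as an adjusted p-value below 0.05, compared with 22.0% of all genes. These folds pool 5 groups, and the log2 difference of Npy ranged from 0.27 in Con (17.3 ± 4.12 against 14.4 ± 4.02 CPM, adjusted p-value 0.190) to 1.61, or 3.06-fold, in MPTP-SU+S. Sst, Grp and Tac1 passed the adjusted p-value alone, with log2 differences of 0.49, 0.29 and -0.43. In Con, Sst differed by 0.18 and Grp by -0.10 (adjusted p-values of edgeR 0.376 and 0.742). In MPTP-SU they differed by 0.94 and 0.89. Tac1 differed by -0.46 in Con and -0.36 in MPTP-SU. In the Con libraries alone, 3 members were called, namely Calca, Calcb and Penk, beside 16.4% of all genes, and Pdyn was 1.46-fold higher in the cord (adjusted p-value of edgeR 0.186). Nothing in the labels says whether both tissues came from the same mice, and fewer cells of a type cannot be told apart from less RNA per cell in these bulk samples.

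In the spinal cord, MPTP alone was compared with saline to ask whether the toxin changes the peptide genes. None of the 9 genes was called between MPTP-Veh and Con, nor was any of the 16682 genes tested (0%) by edgeR, while limma-voom also called 0 and DESeq2 called 1. At an unadjusted p-value below 0.05 there were 2137 genes (12.8%), including Penk and Sst. Penk lay at 182, 155, 183 and 214 CPM in the Con libraries and at 166, 157, 166 and 170 CPM in the MPTP-Veh libraries. Its 2 groups overlapped, and the log2 fold change was -0.16 (SE 0.0644, adjusted p-value of edgeR 0.316). Sst lay at 97.8, 76.3, 84.0 and 78.7 CPM in Con and at 83.6, 69.8, 71.0 and 77.2 CPM in MPTP-Veh, again with overlap, at -0.16 on the log2 scale (SE 0.0669). For Calca the log2 fold change was -0.01, with a 95% interval from -0.27 to 0.26, which corresponds to 0.832-fold to 1.19-fold. For the other members the log2 fold changes ranged from -0.13 for Tac1 to 0.05 for Pdyn.

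The comparison of MPTP-SU with MPTP-Veh asks what SUEHP changes in MPTP-treated mice. In the spinal cord edgeR, limma-voom and DESeq2 each called 0 of the 9 genes and 0 of all genes (0%), and 636 genes (3.81%) had an unadjusted edgeR p-value below 0.05. Calca lay at 13.8, 13.1, 10.8 and 13.1 CPM in MPTP-Veh and at 16.2, 23.8, 16.8 and 14.7 CPM in MPTP-SU. The 4 MPTP-SU values lay above the MPTP-Veh values, and the highest belonged to the library with ganglion transcripts. The log2 fold change was 0.49 (SE 0.122), with an unadjusted p-value of 0.000509 and an adjusted p-value of 0.999 by edgeR. Without MPTP-SU replicate 2 it was 0.32 (unadjusted p-value 0.00513). Tac1 lay at 17.9, 18.3, 18.8 and 16.6 CPM in MPTP-Veh and at 22.1, 22.3, 19.7 and 19.7 CPM in MPTP-SU. The groups of Tac1 did not overlap either, and the fitted value was 0.23 on the log2 scale (SE 0.0773), which was 0.20 without MPTP-SU replicate 2. Groups that did not overlap were found for 2 of the 9 members and for 3.27% of all genes. The remaining 7 members had log2 fold changes from -0.01 for Pdyn to 0.22 for Grp, and without MPTP-SU replicate 2 they lay between 0.02 for Sst and 0.25 for Grp.

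**Figure D2:**
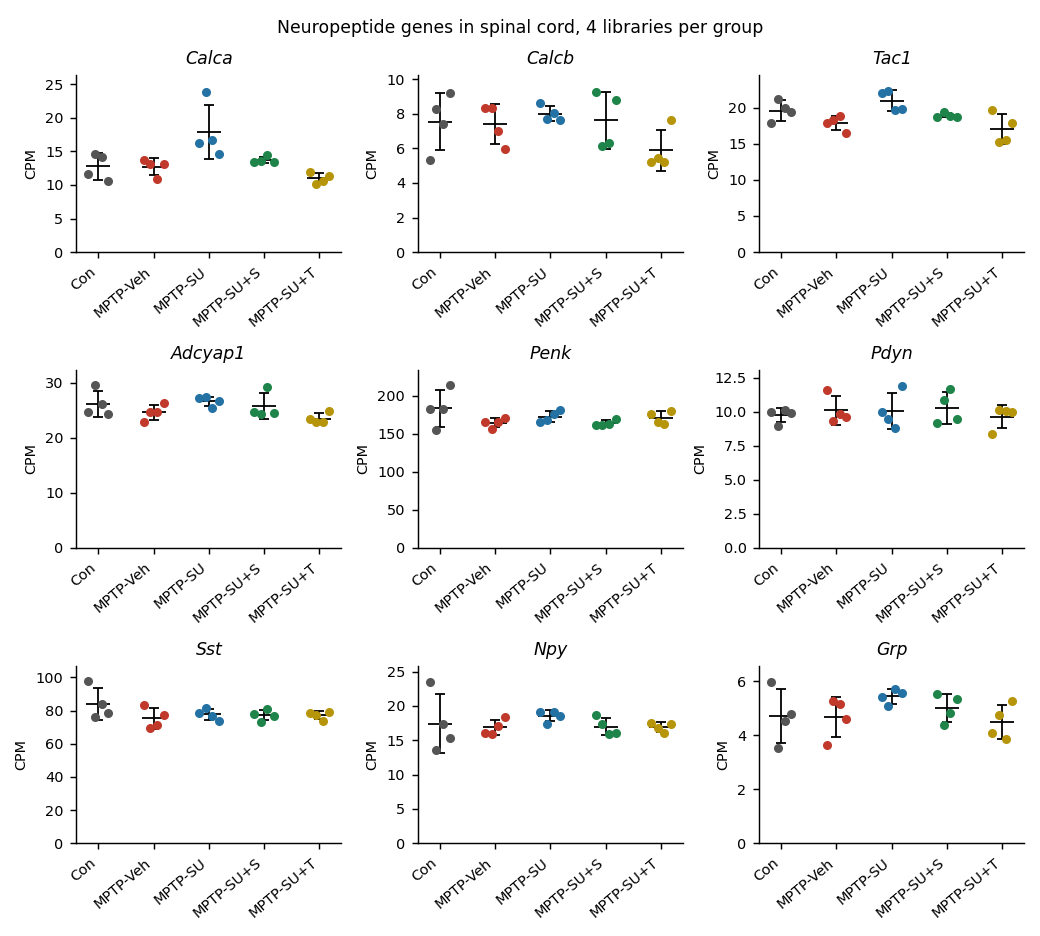
CPM of the 9 neuropeptide genes in the spinal cord. Points are the 4 libraries of a group, horizontal lines the means and bars the SD. Calca is highest in MPTP-SU, at 14.7 to 23.8 CPM, and lowest in MPTP-SU+T, at 10.2 to 12.0 CPM, and Penk, Pdyn and Sst overlap across the MPTP groups.

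The addition of the PPARγ inhibitor gave the only called member in the spinal cord. Calca lay at 16.2, 23.8, 16.8 and 14.7 CPM in MPTP-SU and at 12.0, 10.2, 10.5 and 11.4 CPM in MPTP-SU+T. All 4 values with the inhibitor lay below all 4 without it. Calca fell by 38.4% (log2 fold change -0.70, SE 0.124, 95% interval -0.955 to -0.442, adjusted p-value of edgeR 0.0313). It was 1 of 4 genes called among 16682 (0.0240%). The other 3, Dbp and Scara3, which rose by 0.60 and 0.84 on the log2 scale, and ATP8, a mitochondrial gene that fell by 0.61, are not neuropeptide genes. At an unadjusted p-value below 0.05 there were 2015 genes (12.1%), 4 of them members.

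The Calca call depended on single libraries. Without MPTP-SU replicate 2, which held ganglion transcripts, the log2 fold change was -0.53 (adjusted p-value of edgeR 0.165). Without MPTP-SU+T replicate 1 it was -0.74 (adjusted p-value 0.0629), and without both it was -0.57 (adjusted p-value 0.194, unadjusted 4.61e-05). The value kept its direction when any of the 8 libraries was left out, between -0.79 and -0.53, but the call held only without MPTP-SU replicate 4. With limma-voom the adjusted p-value was 0.0530, and DESeq2 gave a log2 fold change of -0.70 (unadjusted p-value 7.91e-08) without an adjusted p-value. The part of ganglion tissue in the size of the Calca difference was not tested beyond these fits. The summed level of the 24 ganglion and root genes was 1045 to 1839 CPM in MPTP-SU and 987 to 1551 CPM in MPTP-SU+T. The ganglion genes Mrgpra3 and Mrgprx1 had 1 and 4 counts in MPTP-SU replicate 2 and 0 in the other 19 cord libraries.

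None of the other 8 members was called with the inhibitor. Tac1 lay at 19.7, 15.2, 15.5 and 17.8 CPM in MPTP-SU+T, just below the 19.7 to 22.3 CPM of MPTP-SU, at -0.30 on the log2 scale (SE 0.0777, adjusted p-value of edgeR 0.174). Without MPTP-SU replicate 2 the Tac1 value was -0.27, and without MPTP-SU+T replicate 1 it was -0.38. Adcyap1 lay at 27.1, 27.3, 25.4 and 26.6 CPM in MPTP-SU and at 23.4, 22.8, 22.9 and 24.8 CPM in MPTP-SU+T, also without overlap, at -0.18 (SE 0.0708, adjusted p-value 0.301). Calcb lay at 8.61, 7.71, 8.07 and 7.64 CPM in MPTP-SU and at 5.22, 5.45, 5.21 and 7.65 CPM in MPTP-SU+T. Its groups overlapped by 1 library, and the log2 fold change was -0.44 (SE 0.169, adjusted p-value 0.292). Calcb was not raised in MPTP-SU replicate 2, where it had the second lowest value of its group. Without that library the values were -0.17 for Adcyap1 and -0.46 for Calcb. Non-overlapping groups occurred for 3 of the 9 members and for 8.04% of all genes. For the opioid peptide and interneuron genes the values were -0.01 for Penk, -0.06 for Pdyn, -0.01 for Sst, -0.13 for Npy and -0.27 for Grp, and without MPTP-SU replicate 2 they were -0.02, -0.08, 0.02, -0.16 and -0.31.

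With the CB1 antagonist, Calca lay at 13.5, 13.6, 14.4 and 13.4 CPM in the spinal cord, below all 4 MPTP-SU values. The log2 fold change against MPTP-SU was -0.38 (SE 0.121, adjusted p-value of edgeR 0.898), and it was -0.21 without MPTP-SU replicate 2 (unadjusted p-value 0.0549). Tac1 lay at 18.7, 19.4, 18.9 and 18.8 CPM, also below MPTP-SU, with a log2 fold change of -0.15, or -0.11 without MPTP-SU replicate 2. Without that library the other 7 members lay between -0.16 for Npy and 0.02 for Sst. By edgeR, 0 of the 9 members and 0% of all genes were called, with 916 genes (5.49%), Calca among them, at an unadjusted p-value below 0.05. DESeq2 called 1 gene, which was not a member, and limma-voom called 0. Groups without overlap were found for 2 members and 4.19% of all genes. The comparisons of both antagonists and of SUEHP itself share the MPTP-SU libraries, so a high MPTP-SU value enters each of them. Against groups that do not share them, Calca was 0.21 lower on the log2 scale in MPTP-SU+T than in MPTP-Veh (log2 fold change -0.21, adjusted p-value of edgeR 0.532), a comparison added after the data had been seen, in which edgeR called 0% of genes and 1978 had an unadjusted p-value below 0.05. MPTP-SU against Con, added likewise, gave 0.49 for Calca (adjusted p-value 0.470, 0.32 without MPTP-SU replicate 2) and again called 0% of genes (1530 had an unadjusted p-value below 0.05).

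**Figure D3:**
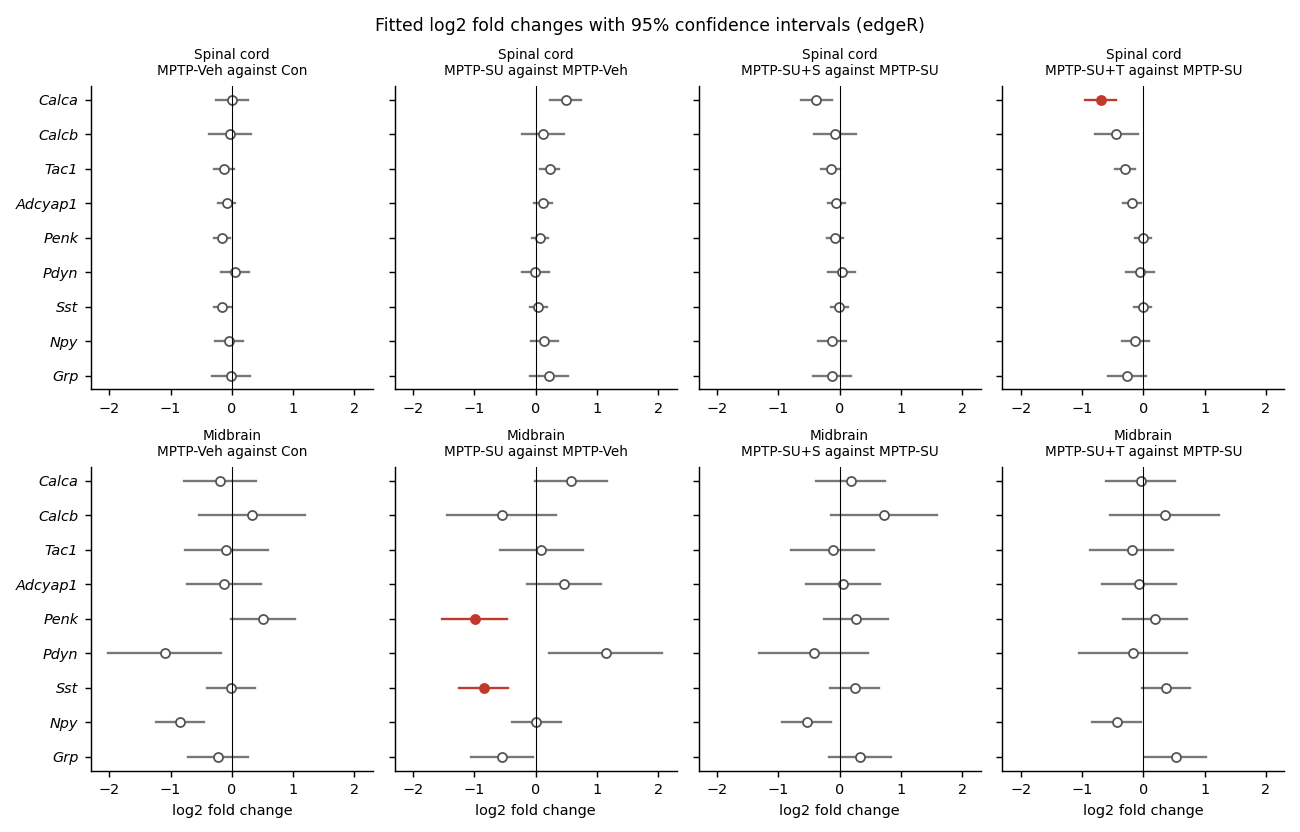
Fitted log2 fold changes of the 9 genes in 4 comparisons per tissue, with 95% confidence intervals from edgeR. Filled red points are called. Calca in the spinal cord with the PPARγ inhibitor and Penk and Sst in the midbrain with SUEHP are the called values, and the midbrain intervals are the wider ones.

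The same comparisons were made in the midbrain. Libraries of the midbrain varied more than those of the cord, with a common dispersion of 0.0512 against 0.00710, so that smaller differences were detectable in the cord. The midbrain value includes MPTP-Veh replicate 4, whose Spearman correlation with the median of the other midbrain libraries was 0.888. The dispersion without that library is not given here. Between MPTP-Veh and Con, 0 of the 9 members were called by edgeR and by limma-voom, and DESeq2 called Npy. Among all genes edgeR called 3 (0.0180%) and DESeq2 called 446, and 3945 (23.7%) had an unadjusted edgeR p-value below 0.05. Npy, the neuropeptide Y precursor, lay at 12.5, 20.2, 13.1 and 11.4 CPM in Con and at 7.31, 8.18, 10.001 and 6.30 CPM in MPTP-Veh. All MPTP-Veh values lay below all Con values, as for 12.4% of all genes, and the log2 fold change was -0.84 (SE 0.188, adjusted p-value of edgeR 0.118). Over 17 alternative settings it was past both limits in 2, with DESeq2 (adjusted p-value 0.00639) and without MPTP-Veh replicate 3 (adjusted p-value 0.0432). In the fit without that replicate, edgeR called 1093 of all genes. Markers of cortex and hippocampus, whose interneurons also make neuropeptide Y, moved with it. They summed to 1026 to 2339 CPM in Con and 670.5 to 1096 CPM in MPTP-Veh, 8 of 13 tested were lower with an unadjusted p-value under 0.05, their median log2 fold change was -1.29 beside 0.0001 for all genes, and their part in the Npy difference was not tested.

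Pdyn in the midbrain lay at 4.65, 4.29, 14.5 and 3.00 CPM in Con and at 3.89, 3.73, 1.39 and 3.39 CPM in MPTP-Veh. The high Con value came from replicate 3, and the log2 fold change of -1.10 was -0.37 without that library. It was the Con library with the highest hypothalamic marker sum, 482 CPM. MPTP-Veh replicate 1, with a sum of 673 CPM, had Pdyn at 3.89 CPM. The part of hypothalamic tissue in the Pdyn values was not tested.

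Sst and Penk were lower in the midbrain of SUEHP-treated mice. Sst lay at 84.7, 54.4, 72.8 and 78.9 CPM in MPTP-Veh and at 53.1, 35.99, 34.9 and 37.1 CPM in MPTP-SU. The groups did not overlap, although the highest MPTP-SU value came close to the lowest MPTP-Veh value. Sst fell by 44.6% (log2 fold change -0.85, SE 0.189, adjusted p-value of edgeR 0.0104). Penk lay at 77.7, 70.8, 62.8 and 106 CPM in MPTP-Veh and at 56.3, 35.3, 32.1 and 34.9 CPM in MPTP-SU, again without overlap. It fell by 49.9% (log2 fold change -0.998, SE 0.2503, adjusted p-value 0.0163). In both genes MPTP-SU replicate 1 was the highest of its group. These were 2 of 9 members, beside 13.5% of all 16629 genes called and 39.8% with an unadjusted p-value under the same limit. Both genes kept the call without MPTP-Veh replicate 1, at -0.77 for Sst and -1.003 for Penk. The high hypothalamic marker sum of that library was mostly Pomc. Both genes also kept the call without MPTP-Veh replicate 4, at -0.81 and -0.83. With the 8 libraries of the comparison alone neither was called, at adjusted p-values of 0.223, and no gene at all was, and Penk was also not called without MPTP-SU replicate 2 (adjusted p-value 0.0545).

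Pdyn and Grp had unadjusted p-values below 0.05 in this comparison and were not called. Pdyn lay at 6.04, 6.21, 6.80 and 8.14 CPM in MPTP-SU, above all MPTP-Veh values, at 1.14 on the log2 scale (SE 0.441, adjusted p-value of edgeR 0.0684). Grp lay at 4.05, 3.99, 5.96 and 3.01 CPM in MPTP-Veh and at 3.89, 2.53, 2.56 and 2.71 CPM in MPTP-SU, with overlap and at -0.55 on the log2 scale (SE 0.240, adjusted p-value 0.0981). No overlap was found for 3 members and for 21.9% of all genes. The afferent peptide genes had wide intervals, from -0.01 to 1.16 for Calca and from -0.59 to 0.77 for Tac1. The MPTP-Veh libraries enter both this comparison and that of MPTP-Veh with Con. Set against Con, in a comparison added after the data had been seen, MPTP-SU had lower Sst (log2 fold change -0.87, adjusted p-value of edgeR 0.0326) and lower Npy (-0.84, adjusted p-value 0.0350), beside 0.764% of all genes called, and Penk was not called (-0.49, adjusted p-value 0.347). For Npy the MPTP-SU values were 8.18, 7.38, 9.003 and 7.48 CPM, within the range of MPTP-Veh. Markers of cortex and hippocampus summed to 574 to 994 CPM in MPTP-SU, below all Con libraries, with 2 of 13 called lower, and their part in these differences was not tested.

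**Figure D4:**
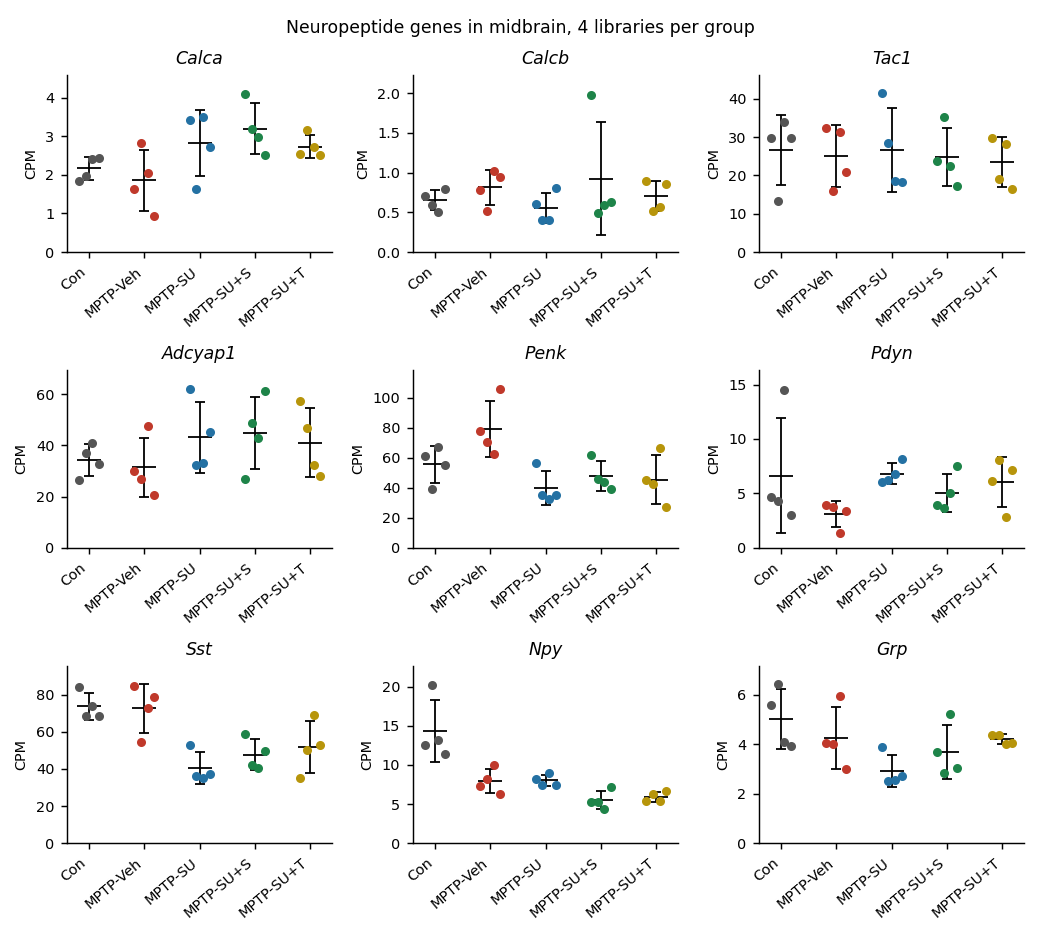
CPM of the 9 neuropeptide genes in the midbrain. Points are the 4 libraries of a group, horizontal lines the means and bars the SD. Sst and Penk lie lower in MPTP-SU, at 34.9 to 53.1 and 32.1 to 56.3 CPM, than in MPTP-Veh, and Npy is highest in Con, at 11.4 to 20.2 CPM.

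Neither antagonist gave a called member in the midbrain. By edgeR and limma-voom 0% of genes were called with either, and DESeq2 called 0 with the CB1 antagonist and 1 with the PPARγ inhibitor, which was not a member. At an unadjusted p-value below 0.05 there were 274 genes (1.65%) and 283 genes (1.70%). Sst lay at 58.6, 41.9, 40.6 and 49.8 CPM in MPTP-SU+S and at 35.4, 50.2, 69.1 and 52.6 CPM in MPTP-SU+T. Both sets overlapped the MPTP-SU values, with log2 fold changes of 0.24 (95% interval -0.15 to 0.64) and 0.36 (-0.03 to 0.76). Penk lay at 61.9, 46.0, 43.8 and 39.0 CPM in MPTP-SU+S and at 45.4, 42.2, 66.8 and 27.3 CPM in MPTP-SU+T, at log2 fold changes of 0.27 (-0.26 to 0.79) and 0.20 (-0.33 to 0.72). The intervals are wide and do not show that the antagonists left these genes unchanged. Npy lay at 5.26, 5.22, 4.43 and 7.17 CPM in MPTP-SU+S and at 5.35, 6.32, 5.45 and 6.61 CPM in MPTP-SU+T, below all MPTP-SU values in both, as for 2.15% and 1.96% of all genes without overlap, with unadjusted edgeR p-values of 0.0116 and 0.0353 and adjusted p-values that both rounded to 1. Grp lay at 4.38, 4.39, 4.03 and 4.04 CPM in MPTP-SU+T, above all MPTP-SU values, at 0.53 on the log2 scale (unadjusted edgeR p-value 0.0405, adjusted 1). In MPTP-SU+T against MPTP-Veh, added after the data had been seen, 3.80% of all genes and none of the 9 members were called. An unadjusted edgeR p-value below 0.05 was found for 4 members and for 5536 of all genes (33.3%). Penk came nearest there, at -0.80 on the log2 scale (adjusted p-value of edgeR 0.0566).

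The effects in the 2 tissues were then compared in 1 model, with calls by the adjusted p-value alone. For SUEHP against MPTP-Veh, the log2 fold change of Penk was 1.06 higher in the spinal cord than in the midbrain (SE 0.262, adjusted p-value of edgeR 0.00842) and that of Sst was 0.89 higher (SE 0.202, adjusted p-value 0.00504). In the cord itself, Penk differed by 0.07 and Sst by 0.04 on the log2 scale. Both differences between tissues were called in all 20 alternative settings, at 1.07 and 0.86 without cord MPTP-SU replicate 2, and 16.8% of all genes were called in this contrast. For MPTP-Veh against Con, Npy differed between tissues by 0.81 (SE 0.216, adjusted p-value 0.0462), beside 3.12% of all genes. The cord values of Npy in Con and MPTP-Veh were 13.6 to 23.5 and 15.9 to 18.3 CPM. This call held in 5 of 20 alternatives. For the CB1 antagonist and the PPARγ inhibitor, edgeR, DESeq2 and limma-voom called 0 members and 0% of genes as different between tissues, with 380 and 429 genes at an unadjusted edgeR p-value below 0.05. The Calca difference under the inhibitor, -0.65 between tissues, had an adjusted p-value of 1.00 (unadjusted 0.0247), so it was not shown to be particular to the cord, and it was -0.48 without cord MPTP-SU replicate 2. That of Grp was -0.81 (unadjusted 0.00678, adjusted 1.00).

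Receptors and processing enzymes of the peptides were taken from fixed lists. In the spinal cord 0 of 19 tested receptor genes, 0 of 16 other peptide genes and 0 of 20 genes of peptide processing and dense-core vesicles were called by edgeR in any comparison, with 1 to 5 genes of a list at an unadjusted p-value below 0.05 where any were. For SUEHP against MPTP-Veh in the cord, the medians of the 3 lists were 0.05, 0.03 and 0.02 on the log2 scale, and that of the 9 members was 0.12, beside 0.0002 for all genes. For the PPARγ inhibitor the members had a median of -0.18, and the 3 lists had 0.01, -0.09 and 0.02, beside 0.01 for all genes. Motor neuron markers, which matter here because motor neurons also make CGRP, had 0 of 14 genes called with the inhibitor, 4 lower and 1 higher before adjustment at the same limit, and a median of -0.07. Their sums were 528 to 555 CPM in MPTP-SU+T and 547 to 605 CPM in MPTP-SU, and their part in the Calca difference was not tested. The 13 ganglion and root genes that passed the filter had a median of -0.15 in that comparison and 0.28 for SUEHP against MPTP-Veh. Dorsal horn neuron markers had medians of -0.02 and -0.01. Without MPTP-SU replicate 2, a fit added after the data had been seen, the ganglion and root genes had medians of -0.08 and 0.17, the members -0.17 and 0.13 and the motor neuron markers -0.07 with the inhibitor, and 0 genes of these lists were called.

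In the midbrain, SUEHP against MPTP-Veh called 2 of 20 receptor genes. Sstr3, a somatostatin receptor, fell by 0.99 on the log2 scale (7.58 ± 2.66 against 15.2 ± 8.50 CPM), and Vipr2, which binds PACAP and VIP, rose by 1.76 (20.5 ± 10.3 against 5.93 ± 5.13). Of 15 other peptide genes 2 rose and 2 fell, among them Cbln2, which rose by 0.59, Nucb2, the nesfatin precursor, which fell by 0.69, and Crh, the corticotropin-releasing hormone gene, which fell by 1.37. Of 20 processing and vesicle genes 1 rose and 3 fell. The 3 were Chgb and Chga, the chromogranins of dense-core vesicles, which fell by 1.25 and 1.11, and Pcsk1n, the inhibitor of a prohormone convertase, which fell by 1.71. Chgb lay at 192 ± 12.1 CPM in MPTP-SU and 458 ± 169 in MPTP-Veh. The sizes of these changes rested in part on MPTP-Veh replicate 4, the library low in mitochondrial counts. The processing and vesicle genes summed to 9253 CPM in that library, against 5449 to 5727 CPM in the other MPTP-Veh libraries and 4962 to 5262 CPM in MPTP-SU. In a fit without it, added after the data had been seen, Chgb, Chga and Pcsk1n were still called, at -0.96, -0.62 and -0.61, as was Nucb2 at -0.77. Sstr3 (-0.53, adjusted p-value of edgeR 0.0997), Vipr2 (1.45, adjusted p-value 0.101), Cbln2 (0.44, adjusted p-value 0.0432, under 1.5-fold) and Crh (-1.08, adjusted p-value 0.101) were not.

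Markers of neighbouring brain regions also moved between these groups. Of 13 striatal markers, which matter because striatal neurons are rich in enkephalin, 3 rose and 3 fell. Drd2 and Ppp1r1b fell by 0.70 and 0.77 on the log2 scale and Pde10a rose by 1.02, with sums of 210 to 227 CPM in MPTP-SU and 224 to 329 CPM in MPTP-Veh. The 14 hypothalamic markers summed to 20.0 to 45.4 CPM in MPTP-SU and 20.2 to 673 CPM in MPTP-Veh. Pomc made up 656 CPM of the 673 CPM in MPTP-Veh replicate 1, and Nkx2-4 was at 0 throughout MPTP-Veh. Markers of pons and medulla summed to 11.4 to 55.1 CPM against 25.8 to 143 CPM, with 1 of 5 tested genes called, and those of cortex and hippocampus to 574 to 994 CPM against 670.5 to 1096 CPM, with 2 higher and 1 lower of 13. The midbrain markers themselves summed to 420 to 656 CPM and 427 to 748 CPM, with En1 and En2 called lower in MPTP-SU at -1.75 and -0.89. Markers of cerebellum summed to 247 to 408 CPM in MPTP-SU and 168 to 275 CPM in MPTP-Veh, with 0 of 9 tested genes called and a median log2 fold change of 0.46. Of 10 tested genes of microglia and injury 4 were called lower, and the list summed to 1696 CPM in MPTP-Veh replicate 4, against 605 to 725 CPM in the other MPTP-Veh libraries and 480 to 660 CPM in MPTP-SU. Without MPTP-Veh replicate 4, 0 genes of microglia and injury were called, nor were En2 (-0.84) and Ppp1r1b (-0.42), whereas Drd2 (-0.63), Pde10a (0.71) and En1 (-1.22) were. The median of the cerebellar markers was 0.35 in that fit. The part of these regions and of dissection in the Sst and Penk differences was not tested beyond the fits without MPTP-Veh replicates 1 and 4 given above.

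No pair of members was called as moving together from library to library. After group means were subtracted from log2 CPM, the 36 pairs of members in the spinal cord had Pearson's r between -0.47 and 0.62, with a median of -0.04, over 20 libraries. In the midbrain r lay between -0.58 and 0.59, with a median of 0.03. By permutation tests of r within groups, 2 pairs in each tissue had an unadjusted p-value below 0.05, and 0 passed Benjamini-Hochberg adjustment over the 36 pairs, the smallest adjusted p-values being 0.546 in the cord and 0.277 in the midbrain. In the midbrain these were Tac1 with Penk (r = 0.59, rho = 0.62, permutation p = 0.0154 and 0.0104) and Penk with Npy (r = -0.58, rho = -0.64, permutation p = 0.00874 and 0.00754). Without the 2 libraries farthest from the median of the first gene, r was 0.51 and -0.60. In the cord they were Calca with Grp and Npy with Grp. Calca with Grp had r = -0.46 and rho = -0.50 (permutation p = 0.0486 and 0.0386), with r = -0.51 without the 2 farthest libraries. For Npy with Grp, r was 0.62 (rho = 0.41, permutation p = 0.0454 and 0.122) and fell to 0.20 without the 2 farthest libraries, so that it rested on them.

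**Figure D5:**
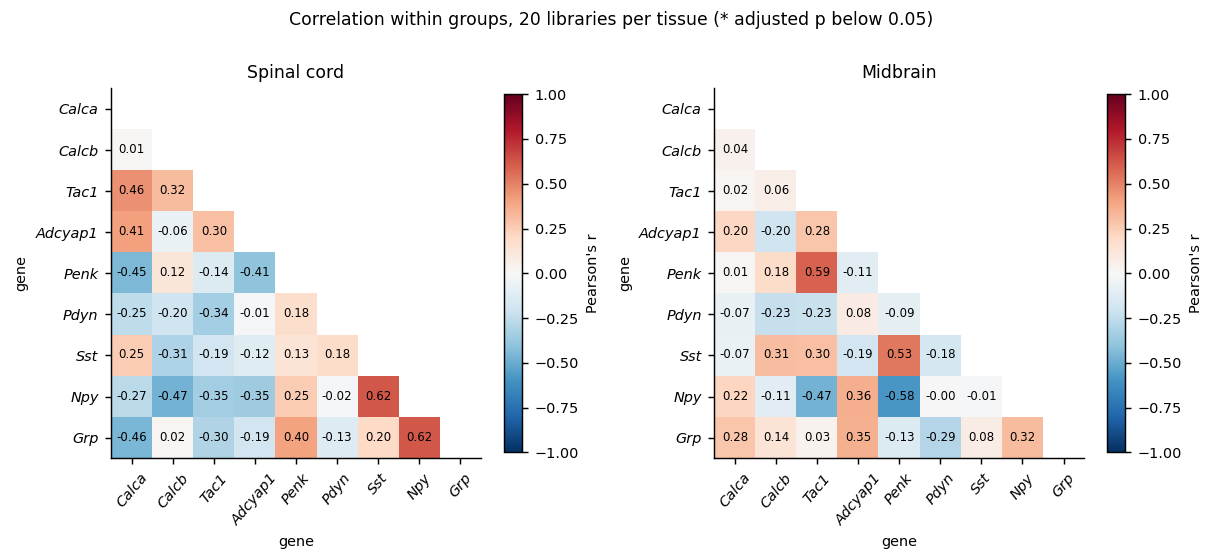
Pearson's r between members across 20 libraries per tissue, on log2 CPM with group means subtracted. Red squares are positive and blue squares negative, and an asterisk would mark an adjusted p-value below 0.05. No pair carries an asterisk, and r spans -0.47 to 0.62 for cord libraries and -0.58 to 0.59 for those of the midbrain.

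Each member was also set against every tested gene by the same measure, and the 3 most alike were taken. In the spinal cord, Calca was most like Osbpl3 (r = 0.79), Pcdha11 (r = 0.77) and Fxyd2 (r = 0.74), Tac1 most like Tbcd (r = 0.79) and Adcyap1 most like Gm6145 (r = 0.87). Penk was most like Rbm19 (r = 0.91), Pdyn most like Irak2 (r = 0.90), Sst most like Babam1 (r = 0.86) and Npy most like Mrpl52 (r = 0.88). In the midbrain, Sst was most like Zc3h4 (r = 0.85), Penk most like Camk1g (r = 0.91), Tac1 most like Smyd3 (r = 0.93) and Adcyap1 most like Sim1 (r = 0.91). These are the highest values among all tested genes over 20 libraries that share depth and dissection, and no member was among the 3 genes most like another. The cord values include MPTP-SU replicate 2, the library with ganglion transcripts, and were not recomputed without it.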

How the data were processed

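Total RNA of mouse midbrain and spinal cord was made into poly(A)-selected CORALL RNA-Seq V2 libraries and sequenced in pairs on an Illumina NovaSeq. Per the methods and labels, the authors used fastp for trimming, STAR for alignment and Salmon for quantification, and the submitters' notes name GRCm39. Use of strand and of molecular identifiers is not given in the sources used here. The deposited tables hold estimated counts for each gene symbol, written as whole numbers without scaling. The labels and the methods name different RNA extraction kits, and the methods give the antagonists before SUEHP where the labels give them together with it.

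Counts were analysed in R 4.3.3 with edgeR 4.0.16 (filterByExpr, TMM, quasi-likelihood test with Benjamini-Hochberg adjustment over all tested genes). Each tissue was fitted over its 20 libraries with a term for group, 16682 genes in the cord and 16629 in the midbrain, and both tissues over 40 libraries for differences between tissues. Calls needed a 1.5-fold change and an adjusted p-value below 0.05. For the difference of an effect between tissues, the adjusted p-value alone was used. CPM used TMM library sizes. A group of 4 set against 4 cannot give an exact permutation p below 0.0286, which is why single genes rest on the fit across genes. Correlations used log2 CPM with a prior count of 2 and 100000 permutations within groups. Alternatives were DESeq2 1.42.0, limma-voom (limma 3.58.1), other scalings and filters, the 8 libraries of a comparison, a replicate block and each library left out. Fits were tested on simulated data.

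Nothing says that replicates are separate animals, so p-values measure the spread between these samples. No pair of replicates agreed within sampling noise (lowest chi-square per degree of freedom 2.76). The members and the gene lists were chosen with earlier results of these data known. Named genes were the 9 members, up to 3 called genes per list and comparison with the smallest p-values, and the 3 genes most like each member, of which the text gives part. The libraries with ganglion transcripts were recognised after the values had been seen. Transcript lengths and coding sequences were matched by symbol to GENCODE vM21, and promoters to RefSeq GRCm38.p6, and no coordinate was carried to the build of the files.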

Additional observations from a re-analysis of the deposited data

Results flagged for a closer look

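Of 90 sets of 4 libraries (9 genes in 10 groups), 9 had 1 value far from the other 3 by Dixon's test, where chance gives about 1 in 20. Of these, 3 were in midbrain MPTP-SU replicate 1, which was the highest of its group for Penk (56.3 CPM), Sst (53.1 CPM) and Grp (3.89 CPM). Without that library the log2 fold changes against MPTP-Veh were -1.21 for Penk and -1.01 for Sst. In the midbrain, Calcb was also high in MPTP-SU+S replicate 1 (1.98 CPM), and Pdyn in Con replicate 3 (14.5 CPM). In the spinal cord, MPTP-SU+S replicate 3 was the highest of its group for Calca (14.4 CPM) and Adcyap1 (29.3 CPM), Calcb was high in MPTP-SU+T replicate 4 (7.65 CPM) and Pdyn was low in MPTP-SU+T replicate 1 (8.37 CPM).

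There were 3 genes that differed between the tissues in their response by the interaction term of edgeR. For MPTP-SU against MPTP-Veh these were Penk (1.06 higher in the spinal cord on the log2 scale) and Sst (0.89 higher), and for MPTP-Veh against Con it was Npy (0.81 higher).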

How the results depend on the processing

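Calca in the spinal cord, MPTP-SU+T against MPTP-SU, was 1 called member; limma-voom and the fit without both ganglion-bearing libraries called 0, and leaving out single libraries gave 0 to 1. For MPTP-SU against MPTP-Veh in the midbrain, 2 members became 0 with the 8 libraries alone and 1 to 2 with a library left out. For MPTP-Veh against Con there, 0 became 1 with DESeq2 and 0 to 1 with a library left out. Between tissues, 6 members became 3 with the Con libraries alone. The difference between tissues in MPTP-Veh against Con, 1 member, became 0 with limma-voom and with the replicate block, and 0 to 2 with a library left out. That in MPTP-SU against MPTP-Veh, 2 members, became 4 with DESeq2, which added Pdyn and Grp, and 2 to 4 with a library left out, 4 without midbrain MPTP-Veh replicate 1 or 2. The cause of these changes was not tested. No called member changed sign. Of 1978 alternatives for 105 uncalled values of members, 15 were called and 92 had the opposite sign.

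Counts over all genes moved more. For MPTP-SU against MPTP-Veh in the midbrain 2237 became 0 with the 8 libraries alone, 3349 with the adjusted p-value alone and 572 without MPTP-Veh replicate 4. For MPTP-Veh against Con there 3 became 446 with DESeq2, 0 with limma-voom and 1093 without MPTP-Veh replicate 3, and in the cord 0 became 19 without the low-count filter and 58 without Con replicate 2. In the cord the PPARγ inhibitor gave 4, and 27 without the low-count filter. For the difference between tissues in MPTP-Veh against Con 543 ranged from 20 with limma-voom to 1958 with DESeq2, and between tissues 3827 became 2099 where every library needed 10 counts.

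Replicate numbers were not taken to pair the samples: no source says that they mark shared animals, and no groups had every correlation of same-numbered deviations over 0.1. As a hint from the data, every library was most like its own number between cord MPTP-Veh and MPTP-SU+S (0.09 to 0.21) and between tissues in MPTP-SU+S (0.03 to 0.10) and MPTP-SU+T (0.07 to 0.34), and not in the other sets of groups. Beyond Npy above, the replicate block changed no call of a member. Depth limits Calcb in the midbrain, with 6 to 29 counts per library.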
